A study of Bos taurus with 16 samples.

Results

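Bovine embryonic stem cells (bESCs) grown in their standard medium without the inhibitor were set against control blastocysts, to show which genes stand higher or lower in the cultured cells than in the embryo from which such cells are derived. The comparison used 7 of the 16 libraries of the series: 2 libraries of bESCs in tifx medium (bESC_tifx, replicates 2 and 3) and 5 control blastocysts, 3 of them labelled DMSO and 2 labelled LY_DMSO. The members were taken from the labels: every bESC library without LY2955303 and every blastocyst that received the vehicle without LY2955303. The study as a whole tested LY2955303, an inhibitor of the retinoic acid receptor RARγ, on bovine blastocysts and on bESCs. All 7 libraries are labelled wild type and batch 1. Each blastocyst library holds 1 whole embryo of day 8, fertilized in vitro, and was made by SMART-Seq, which amplifies full-length cDNA. By the paper's methods the control embryos were cultured with DMSO and with the growth factors LIF, FGF2 and IGF1. The bESC lines were derived from the inner cell mass of Holstein blastocysts and grown on inactivated mouse embryonic fibroblasts in TiFX medium. This medium is based on mTeSR Plus and contains LIF, forskolin, the GSK3 inhibitor CHIR99021 and the tankyrase inhibitor IWR-1. It also contains inhibitors of MEK, the FGF receptor and DOT1L. Their RNA was column-purified and selected with poly-T beads. The labels do not say whether the 2 bESC_tifx libraries are separate lines.

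A blastocyst holds the trophectoderm, the outer epithelium that forms the placenta, and an inner cell mass that separates into epiblast and hypoblast. The epiblast is the pluripotent tissue from which embryonic stem cells come. Pluripotent cells are commonly described along a line from a naive state, with factors such as KLF4 and TFCP2L1, to a primed state nearer to gastrulation, with factors such as ZIC2 and with the de novo methyltransferase DNMT3B. A library of a whole blastocyst mixes all its lineages, so in these data fewer cells of a type and less RNA per cell cannot be told apart.

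The deposited values are FPKM, reads scaled to gene length and library size. The bESC table and the blastocyst tables were made with different annotations and from different library kits, and were normalized separately, so cell type, table, annotation and kit divide the 7 libraries in the same way and cannot be told apart. Genes were therefore placed by their percentile rank within each library, from 0 for the lowest to 100 for the highest FPKM, over the 16408 gene names found once in every table. A rank of 50 corresponded to between 1.05 and 5.82 FPKM in the 7 libraries. The 12109 genes with a mean of at least 1 FPKM in either group were counted. A gene was called higher or lower when the libraries of the 2 groups did not overlap and the nearest ones lay at least 10 points apart. No test was run across tables, and n is 2 bESC_tifx libraries against 5 blastocysts throughout. FPKM values of the 2 groups are given side by side and each belongs to its own table. The bESC_tifx libraries held 29876143 and 31230432 reads on genes and the blastocysts between 10247618 and 17343140.

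Of the counted genes, 2513 were higher in bESC_tifx (20.8%) and 2242 were lower (18.5%). The same rule applied between the 3 DMSO and the 2 LY_DMSO blastocysts, which also come from separate tables, called 197 of these genes in either direction (1.63%). These 2 tables list equal lengths for 100% of the shared genes, while 45.5% have lengths within 1.2 times between the bESC and blastocyst tables. This yardstick therefore does not cover differences of annotation and kit. The median absolute difference in rank was 14.08 points between bESC_tifx and blastocysts, 3.35 points between DMSO and LY_DMSO, and 2.74 points between the 2 bESC_tifx libraries. Across genes, Spearman's rho was 0.976 between the bESC_tifx libraries, between 0.915 and 0.957 among the blastocysts, and between 0.668 and 0.739 across the 2 groups. Of the calls, 1541 higher genes had a mean under 1 FPKM in blastocysts and 531 lower genes had a mean under 1 FPKM in bESC_tifx. A gene above rank 90 in a blastocyst has no room to be called higher, which held for 2081 counted genes, and 1827 could not be called lower for the same reason. On a log2 scale of FPKM rescaled to the shared genes, with a gap of at least 1, the split was 5656 higher and 927 lower. On that scale the median of all counted genes was shifted by 1.57 towards bESC_tifx, and after this shift was removed 2491 genes were higher and 2787 lower. Where the shift is left in, a lower call is harder to reach. Each call described below as lost on the log2 scale was a lower call, with the shift left in. The 100 highest genes held between 39.6% and 43.2% of the rescaled FPKM in blastocysts and between 28.7% and 29.5% in bESC_tifx.

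**Figure D1:**
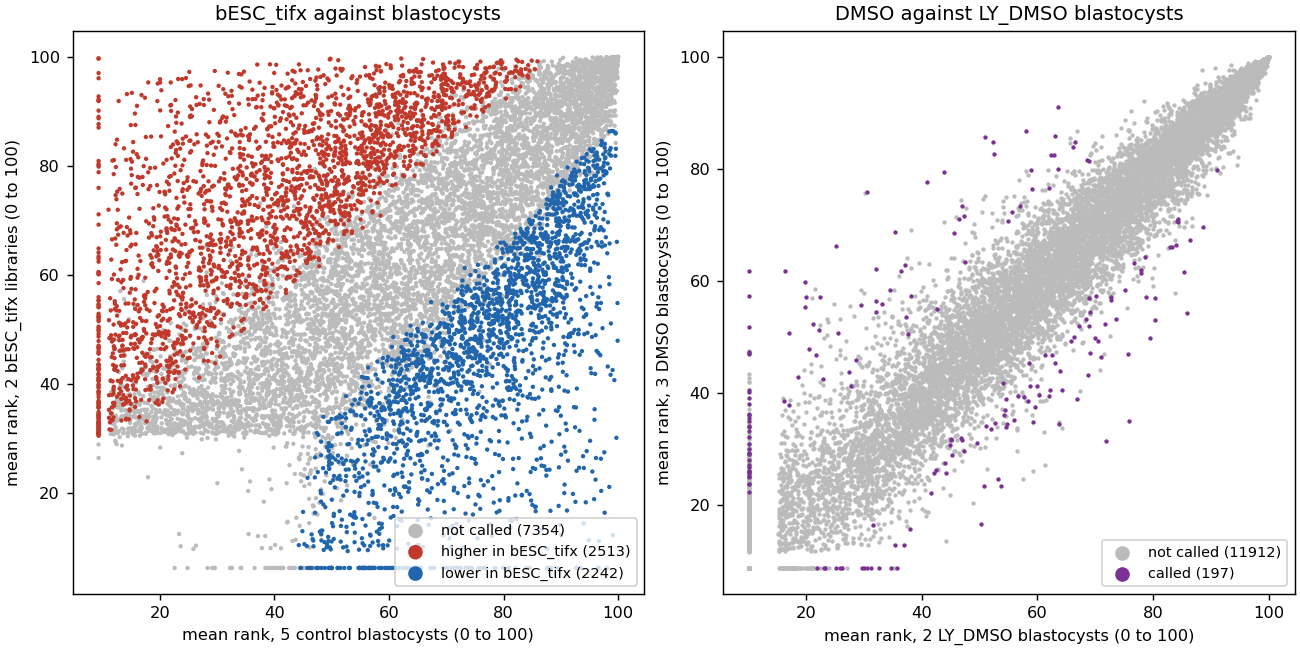
Mean percentile rank of the 12109 counted genes, 1 point per gene. Left, bESC_tifx (vertical) against the 5 control blastocysts (horizontal), with 2513 genes higher (red) and 2242 lower (blue). Right, DMSO against LY_DMSO blastocysts under the same rule, with 197 genes called (purple) and a narrower spread around the diagonal.

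Complexes that every cell uses served as a second yardstick, chosen after the data were seen. Of 128 subunits of RNA polymerase II, the proteasome, the chaperonin and the cytosolic ribosome, 4 were called higher (3.12%) and 3 lower (2.34%). The median difference was 0.39 points over 75 ribosomal protein genes and -0.78 points over 33 proteasome subunits. This yardstick is limited by the scale, since only 6 of the 128 genes were low enough in the blastocysts to be called higher, and 4 of these 6 were. They were POLR2A, PSMD3, RPS23 and RPL37, the last 2 with an overlap of gene models described below. In the proteasome, chaperonin and ribosome lists the median rank in bESC_tifx was at least 95.61, so most of their genes could not be called lower. The shares of 3.12% and 2.34% were therefore largely set by the scale. In RNA polymerase II, 1 of 12 subunits was called higher and 3 lower, with a median difference of -6.58 points, and single subunits moved much further. POLR2A, the largest subunit of RNA polymerase II, differed by 35.62 points and POLR2K, one of its small subunits, by -45.20 points. The median difference also moved with gene length, from -3.99 points for genes up to 1000 bases in the bESC table to 5.81 points for genes over 4000 bases, and it was -12.33 points for the 278 genes listed more than 2 times longer in the bESC table than in the blastocyst tables.

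Cell type markers were checked against the labels. Summed over the 6 matched markers of pluripotent cells, FPKM lay between 2382 and 2532 in bESC_tifx, between 220.3 and 316.1 in DMSO and between 318.5 and 531.5 in LY_DMSO. SOX2 and TDGF1 were not matched by name and have no value here. The 12 trophectoderm markers summed to between 110.2 and 296.8 FPKM in bESC_tifx and to between 2615 and 6506 FPKM in the blastocysts, with PAG2, PAG11, TKDP1 and IFNT2 listed at 0 in both bESC_tifx libraries. The keratins KRT8 and KRT18 made up most of each sum, and CDX2 and HAND1 overlapped between the groups. The 7 hypoblast markers summed to 5.41 and 5.96 FPKM in bESC_tifx and to between 72.4 and 128.2 FPKM in the blastocysts. GATA6 alone had between 58.6 and 107 FPKM in the blastocysts, while GATA4 and SOX17 had at most 0.303 FPKM in every library. For the 9 fibroblast markers, which could mark feeder cells, the sum was 74.2 and 74.3 FPKM in bESC_tifx, between 24.4 and 91.1 in DMSO and between 11.8 and 17.6 in LY_DMSO. Oocyte markers summed to no more than 4.04 FPKM and cumulus markers to no more than 5.04 FPKM in any of the 7 libraries.

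The core list of pluripotency genes was divided: POU5F1 and NANOG were read in all 7 libraries, LIN28A stood far higher in bESC_tifx, and DPPA2 and DPPA4 were at or near 0 there. Of 18 genes in the core list 13 were matched and counted, with 4 called higher (30.8%), 2 lower (15.4%) and a median difference of 8.93 points. Of all counted genes 20.8% were higher and 18.5% lower. POU5F1, the central transcription factor of pluripotency, on chromosome 23 from 27982798 to 27987297, had 1086 and 967 FPKM in bESC_tifx. In the blastocysts it had 246, 184 and 164 FPKM (DMSO) and 395 and 240 FPKM (LY_DMSO). The groups did not overlap, but POU5F1 lay near the top of the scale in all 7 libraries and differed by 2.59 points (pooled SD 0.80), so it was not called. NANOG, a second core factor, had 53.8 and 38.7 FPKM in bESC_tifx, and 14.7, 22.5, 2.91, 49.6 and 31.6 FPKM in DMSO 1 to 3 and LY_DMSO 1 and 2. Its groups overlapped, with DMSO 3 lowest. LIN28A, an RNA-binding protein that blocks let-7 maturation, on chromosome 2 from 126708949 to 126720207, had 843 and 868 FPKM in bESC_tifx and between 3.15 and 7.43 FPKM in the blastocysts. It differed by 33.62 points (pooled SD 4.67). Its paralog LIN28B differed by 29.82 points, but by -0.19 points when 1 common gene length was used, since the bESC table lists it at 0.109 times the length in the blastocyst tables. The lower calls of the core list were DPPA2 and DPPA4, chromatin-bound partner proteins of early embryos and pluripotent cells. DPPA2, on chromosome 1 from 54058687 to 54070616, had 0 reads in both bESC_tifx libraries, which allows at most 0.0849 FPKM, and between 166 and 217 FPKM in the blastocysts. DPPA4 had 0.0658 and 0.0204 FPKM against between 4.26 and 22.2 FPKM. SALL4, a zinc finger factor of the same network, was higher by 11.16 points with a gap of 6.85 points and was not called.

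Genes of the primed list were mostly higher. Of 21 counted genes 15 were called higher and 0 lower, against 20.8% and 18.5% of all counted genes, and the median difference was 43.73 points. SFRP2, a secreted Wnt antagonist, had 92.8 and 120 FPKM in bESC_tifx. It had 0.109, 0 and 4.42 FPKM in DMSO and was listed at 0 in both LY_DMSO blastocysts. ZIC2, a zinc finger factor of the primed epiblast, had 61.3 and 123 FPKM in bESC_tifx and at most 1.56 FPKM in a blastocyst. Its difference was 53.48 points (pooled SD 7.26). SOX11, a neural and primed-state factor, had 118 and 172 FPKM against at most 0.873 FPKM. The bESC table lists it at 0.146 times the length in the blastocyst tables, which raises its FPKM there, and its call was kept with 1 common gene length. DNMT3B, which sets new DNA methylation, had 423 and 341 FPKM in bESC_tifx and between 2.71 and 15.003 FPKM in the blastocysts, a difference of 26.84 points (pooled SD 6.82). In each of these genes both bESC_tifx libraries lay above all 5 blastocysts.

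The naive list was mostly lower. Of 12 counted genes 9 were called lower (75%) and 2 higher (16.7%), against 18.5% and 20.8% of all counted genes. The median difference was -41.80 points. KLF4, a factor of the naive network, had 1.41 and 3.04 FPKM in bESC_tifx and 48.4, 55.0, 21.8, 21.9 and 14.98 FPKM in DMSO 1 to 3 and LY_DMSO 1 and 2. KLF5, of the same family, had 4.25 and 9.61 FPKM against between 72.3 and 175 FPKM. TFCP2L1, another naive factor, had 0.366 and 0.124 FPKM against between 6.79 and 11.5 FPKM. ZFP42, known as REX1, on chromosome 27 from 17564552 to 17566118, had 0 and 3 reads in bESC_tifx and between 556 and 827 FPKM in the blastocysts. Its difference was -86.77 points (pooled SD 3.75). DPPA3, also called STELLA, which protects the maternal genome from demethylation, had 1.15 and 0.169 FPKM in bESC_tifx and between 197 and 260 FPKM in the blastocysts. In all of these the blastocysts lay above both bESC_tifx libraries. The exceptions in the list were GBX2, a homeobox factor, with 38.2 and 91.6 FPKM in bESC_tifx and at most 0.534 FPKM in a blastocyst, and TFE3, a helix-loop-helix factor, which was higher by 20.28 points.

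**Figure D2:**
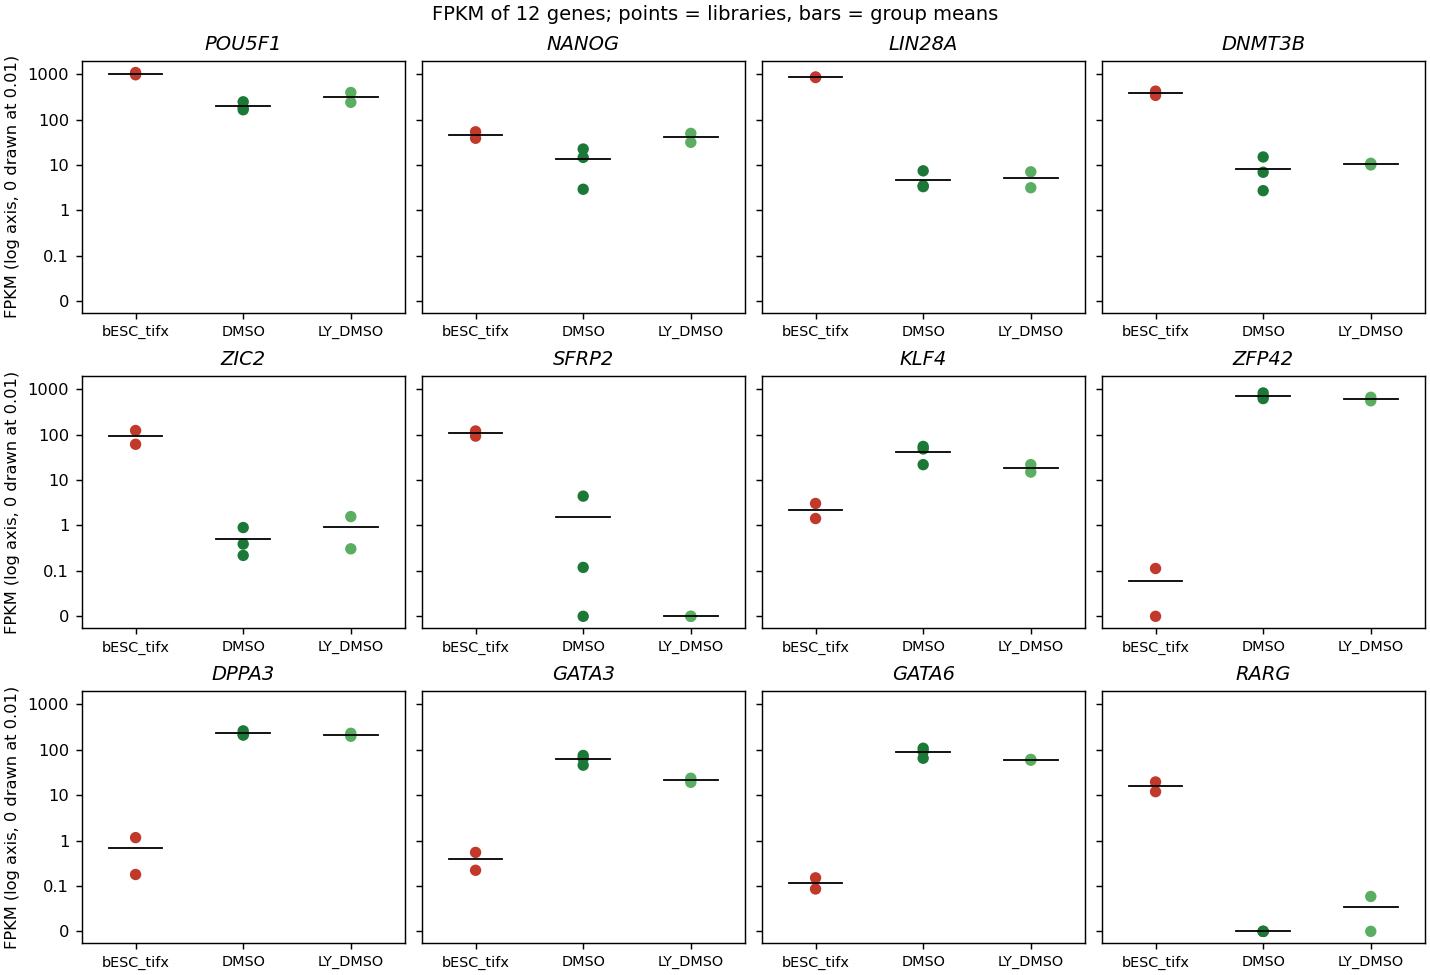
FPKM of 12 genes in each library on a log axis, with 0 drawn at 0.01. Points are libraries and bars are group means. LIN28A, DNMT3B, ZIC2, SFRP2 and RARG stood higher in both bESC_tifx libraries than in every blastocyst, KLF4, ZFP42, DPPA3, GATA3 and GATA6 stood lower, and NANOG overlapped.

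Trophectoderm genes were lower in bESC_tifx as a group. Of 27 counted genes of the trophectoderm list 15 were called lower (55.6%) and 2 higher (7.41%), against 18.5% and 20.8% of all counted genes. The median difference was -25.12 points. GATA3, a trophectoderm factor, had 0.211 and 0.537 FPKM in bESC_tifx and 64.5, 45.6, 74.6, 19.1 and 23.5 FPKM in DMSO 1 to 3 and LY_DMSO 1 and 2. GATA2 differed by -51.42 points and TFAP2C by -51.84 points. DAB2, an endocytic adaptor, had at most 0.865 FPKM in bESC_tifx and at least 141 FPKM in a blastocyst. KRT8, a keratin of the first epithelium, had 209 and 73.9 FPKM in bESC_tifx and between 1582 and 4211 FPKM in the blastocysts. KRT8 lay near the top of the scale in all 7 libraries and differed by -3.56 points. KRT18 ranked 94.83 in bESC_tifx 2 and 73.56 in bESC_tifx 3, below the blastocysts by -15.37 points on average, and with gaps under 10 points neither keratin was called. CDX2, a trophectoderm factor in the blastocyst, was not separated: it had 0.368 FPKM in bESC_tifx 2 and 13.7 FPKM in bESC_tifx 3, against 0.210 to 3.08 FPKM in the blastocysts. FGFR2, an FGF receptor, and WNT7A, a Wnt ligand, were the called exceptions, higher by 32.24 and 31.32 points.

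Of 24 matched trophoblast products only 5 were counted, and 4 of them were called lower. PAG2, IFNT3 and TKDP1 among them passed the minimum level through the blastocysts alone, so they could only come out lower. The count and the median of this list were thus in part set by that filter. PAG2, a pregnancy-associated glycoprotein, was listed at 0 in both bESC_tifx libraries and had 26.3, 91.8, 96.6, 25.8 and 23.0 FPKM in DMSO 1 to 3 and LY_DMSO 1 and 2. IFNT3, an interferon tau, was listed at 0 in both and ranged from 2.57 FPKM in LY_DMSO 2 to 277 FPKM in DMSO 3. These families have near-identical copies, so reads on single members are uncertain. Epithelial junction and blastocoel genes had 15 of 36 counted genes called lower (41.7%) and 2 higher (5.56%), against 18.5% and 20.8% of all counted genes. CLDN4, a claudin of tight junctions, had 0.589 and 0.223 FPKM in bESC_tifx and between 26.3 and 92.6 FPKM in the blastocysts, and AQP3, a water and glycerol channel, had at most 0.598 FPKM against at least 27.7 FPKM.

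The hypoblast list was divided, with 7 of 22 genes called lower (31.8%) and 5 higher (22.7%), against 18.5% and 20.8% of all counted genes. Its median of -7.60 points became 1.33 points when only genes of similar length in the tables were used. GATA6, an early hypoblast factor, on chromosome 24 from 34161968 to 34194339, had 0.0757 and 0.141 FPKM in bESC_tifx and between 58.6 and 107 FPKM in the blastocysts. It differed by -74.14 points (pooled SD 1.85). RSPO3, a Wnt agonist, differed by -46.87 points. SOX17 and GATA4, later hypoblast factors, were at most 0.303 FPKM in every library. PDGFRA, a hypoblast receptor, had 1.77 and 2.69 FPKM in bESC_tifx and from 0.526 to 58.2 FPKM in the blastocysts, and its groups overlapped. FST, the activin antagonist follistatin, was called higher with 93.9 and 85.0 FPKM against at most 0.126 FPKM.

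**Figure D3:**
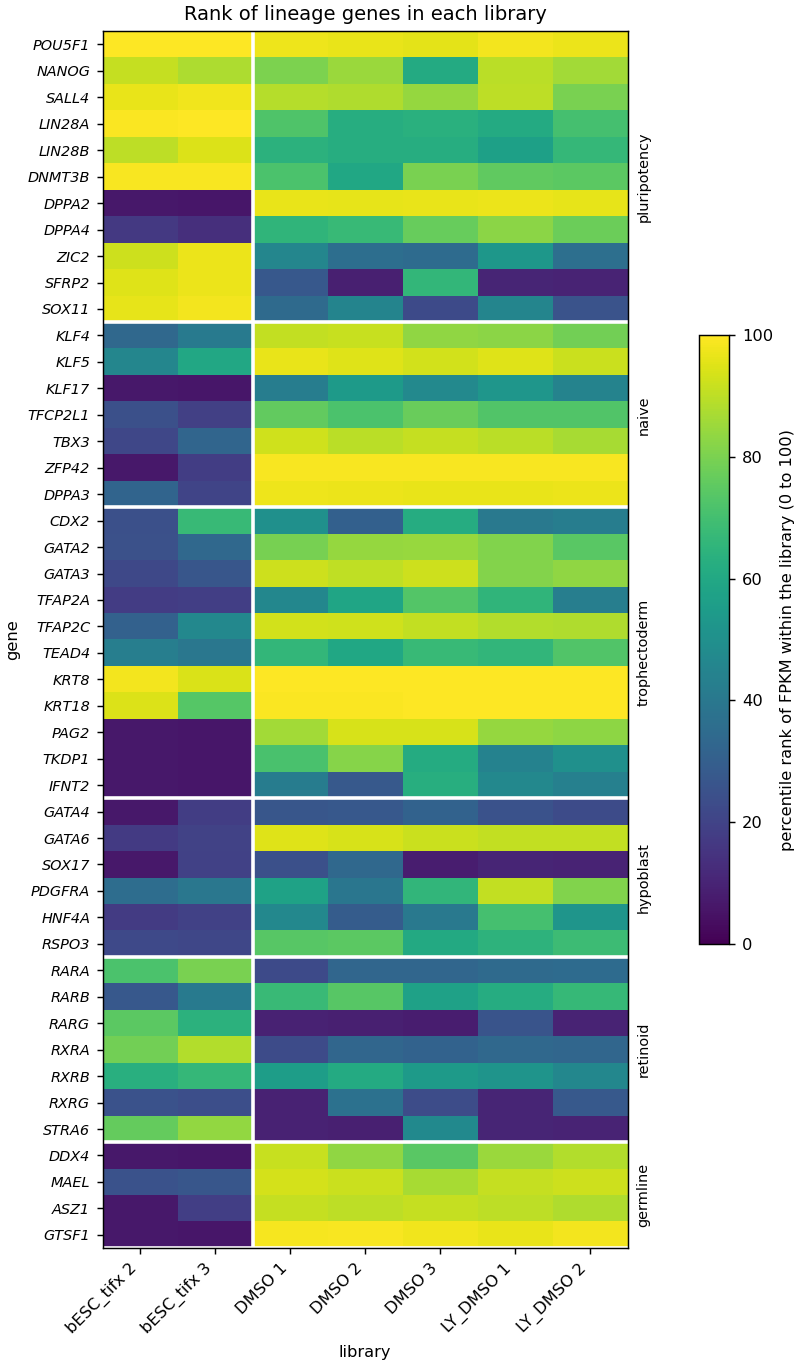
Percentile rank of lineage genes in each of the 7 libraries, from 0 (dark) to 100 (yellow). ZFP42 (naive), GATA6 (hypoblast) and GTSF1 (germline) are dark in both bESC_tifx columns and bright in all 5 blastocysts. ZIC2, SFRP2 and RARG show the opposite, apart from SFRP2 in DMSO 3 (rank 66.28). The hypoblast genes GATA4 and SOX17 are low in every library, and PDGFRA and HNF4A were not called.

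Germline and maternal genes formed another lower group. Of 19 counted germline genes 13 were called lower and 2 higher, with a median difference of -43.73 points. GTSF1, a protein of the piRNA pathway, on chromosome 5 from 25613259 to 25629606, had 0 reads in both bESC_tifx libraries, which allows at most 0.152 FPKM. The blastocysts had 446, 582, 360, 192 and 356 FPKM. DDX4, the VASA helicase, was listed at 0 in both bESC_tifx libraries and had between 9.07 and 56.5 FPKM in the blastocysts. MAEL and ASZ1, also of the piRNA pathway, differed by -65.28 and -77.63 points. DND1, an RNA-binding protein, and DAZAP1, a ubiquitous one, were higher by 33.61 and 24.16 points. Of 8 counted oocyte and maternal genes 4 were lower (50%) and 1 was higher (12.5%), against the same shares of all counted genes. The median of that list was -18.53 points, and it was 0.19 on the log2 scale, where all counted genes were shifted by 1.57. OOEP, a maternal-effect gene, was lower by 53.73 points, but its span lies wholly inside another gene model in the bESC table. ZSCAN4, a gene of early genome activation, was listed at 0 in both bESC_tifx libraries and had between 1.46 and 7.47 FPKM in the blastocysts, with the same kind of overlap in the bESC table.

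Among the pathways that the culture medium acts on, FGF-MEK and Wnt genes were more often higher than lower. In the FGF-MEK list 10 of 26 counted genes were higher (38.5%) and 2 lower (7.69%), against 20.8% and 18.5% of all counted genes. The median rank of the list was 58.80 in bESC_tifx 2, 74.14 in bESC_tifx 3 and between 42.41 and 54.54 in the blastocysts. DUSP4, a phosphatase induced by ERK signaling, had 57.6 and 55.7 FPKM in bESC_tifx and was listed at 0 in every blastocyst except LY_DMSO 2, which had 0.0838 FPKM. SPRY4, a feedback inhibitor of the pathway, had 30.1 and 32.1 FPKM against at most 2.60 FPKM. DUSP6, of the same feedback, did not reach the gap, with 43.6 and 37.1 FPKM against 22.6 FPKM in DMSO 3 and at most 6.91 FPKM in the other blastocysts. In the Wnt list 7 of 22 were higher (31.8%) and 1 lower (4.55%), with a median rank of 50.36 in bESC_tifx 2, 68.78 in bESC_tifx 3 and 35.38 to 42.76 in the blastocysts. NKD2, a Wnt feedback gene, had 40.7 and 58.0 FPKM against at most 0.418 FPKM, while AXIN2, a direct Wnt target, had 7.60 FPKM in bESC_tifx 2, 28.4 FPKM in bESC_tifx 3 and between 1.06 and 2.52 FPKM in the blastocysts, without a gap in rank. The LIF-STAT3 list was even, with 5 of 19 genes higher and 5 lower (26.3% each). SOCS3, the feedback inhibitor of STAT3, was higher by 31.42 points, and by 12.67 points without a call when 1 common gene length was used. IL6R, an interleukin receptor, was lower by 33.75 points and lost its call on the log2 scale. In the cAMP list 2 of 14 genes were higher (14.3%) and 1 lower (7.14%), both below the shares of all counted genes.

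Of the 6 retinoid receptor genes, the family to which the target of LY2955303 belongs, RARG, RARA and RXRA were called higher, RARB lower and RXRB neither, while RXRG was under the minimum level. RARG, which encodes RARγ, on chromosome 5 from 26774193 to 26794819, had 19.5 and 11.9 FPKM in bESC_tifx. It had 0 reads in 4 of the 5 control blastocysts and 4 reads, or 0.0487 FPKM, in LY_DMSO 1. A count of 0 allows at most 0.0618 FPKM in the shallowest of them. The difference was 56.95 points (pooled SD 7.64), and its span overlaps no other gene model in the tables. RARA, the alpha receptor, had 16.6 and 24.7 FPKM against at most 0.274 FPKM, and RXRA, a partner of both, had 23.6 and 41.5 FPKM against at most 0.278 FPKM. RARB, the beta receptor, was lower on the rank scale but lost its call on the log2 scale, with 0.577 and 3.16 FPKM against 5.17, 8.30, 2.07, 3.38 and 5.32 FPKM. RXRB differed by 10.98 points with a gap of 1.75 points, and RXRG overlapped. STRA6, the membrane receptor for retinol uptake, had 21.0 and 30.2 FPKM in bESC_tifx and was listed at 0 in all blastocysts but DMSO 3, which had 0.834 FPKM. ALDH1A3 and DHRS3, which make retinoic acid and reduce retinal, were lower by 46.24 and 39.15 points. Over the list, 8 of 22 counted genes were higher (36.4%) and 4 lower (18.2%), against 20.8% and 18.5% of all counted genes. The median of 16.11 points became -1.66 points when only genes of similar length were used. Between 0 and 23 reads supported RARA, RARG and RXRA in each blastocyst. RARA and RXRA are over 4000 bases long in the bESC table, and 29.5% of such counted genes were called higher.

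Genes of DNA methylation and metabolism showed smaller shifts in rank, and many of the metabolic genes lay near the top, where ranks can move little. Of 19 counted methylation genes 5 were higher (26.3%) and 2 lower, near the 20.8% of all counted genes. DNMT1, the maintenance methyltransferase, had 60.1 and 64.3 FPKM against between 1.69 and 2.85 FPKM, and UHRF1, its partner, had 82.5 and 112 FPKM against at most 1.74 FPKM. DNMT3A, the other de novo enzyme, overlapped, with a difference of 0.47 points. In the glycolysis list 7 of 25 genes were higher (28%) and 2 lower, and only 11 of the 25 ranked low enough in the blastocysts to be called higher. TPI1, a glycolytic enzyme, was lower by 58.21 points and lies wholly inside another gene model in the bESC table. Cholesterol synthesis had 7 of 28 genes higher (25%) and 1 lower, and only 13 of the 28 ranked low enough in the blastocysts to be called higher. The glycolysis and cholesterol shares therefore cannot be set against the 20.8% of all counted genes, of which 2081 of 12109 lacked that room. Of 70 nuclear genes of oxidative phosphorylation 11 were lower (15.7%). The median rank of this list was 93.37 in bESC_tifx 2 and 91.50 in bESC_tifx 3, so many of its genes had no room to be called lower. The share therefore cannot be set against the 18.5% of all counted genes, of which 1827 of 12109 lacked that room. Only 1 of the 70 ranked low enough in the blastocysts to be called higher. Their median difference was -4.50 points, beside -3.99 points for all genes up to 1000 bases, and 61 of the 70 had a lower mean rank in bESC_tifx. NDUFA13, a subunit of complex I, had 15.04 and 13.7 FPKM against between 205 and 351 FPKM. The bESC table lists it at 2.35 times the length in the blastocyst tables, which lowers its FPKM there, and its call was kept with 1 common gene length. The 13 genes of mitochondrial DNA lay at the top of the scale in all 7 libraries, with a median rank between 99.71 and 99.95, so the rank scale could not separate them. In the apoptosis list 11 of 29 genes were lower (37.9%) and 3 higher (10.3%), against 18.5% and 20.8% of all counted genes. PMAIP1, which encodes NOXA, had 5.87 and 4.67 FPKM against between 42.8 and 80.6 FPKM. The median of that list was -11.72 points, and it was 0.34 on the log2 scale, where all counted genes were shifted by 1.57. MKI67, a proliferation marker, had 45.4 and 85.4 FPKM in bESC_tifx and at most 1.57 FPKM in a blastocyst. MKI67 and DNMT1 are over 4000 bases long in the bESC table, and 29.5% of such counted genes were called higher. In the cell cycle list 9 of 37 genes were higher (24.3%) and 3 lower, and 23 of the 37 ranked low enough in the blastocysts to be called higher.

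**Figure D4:**
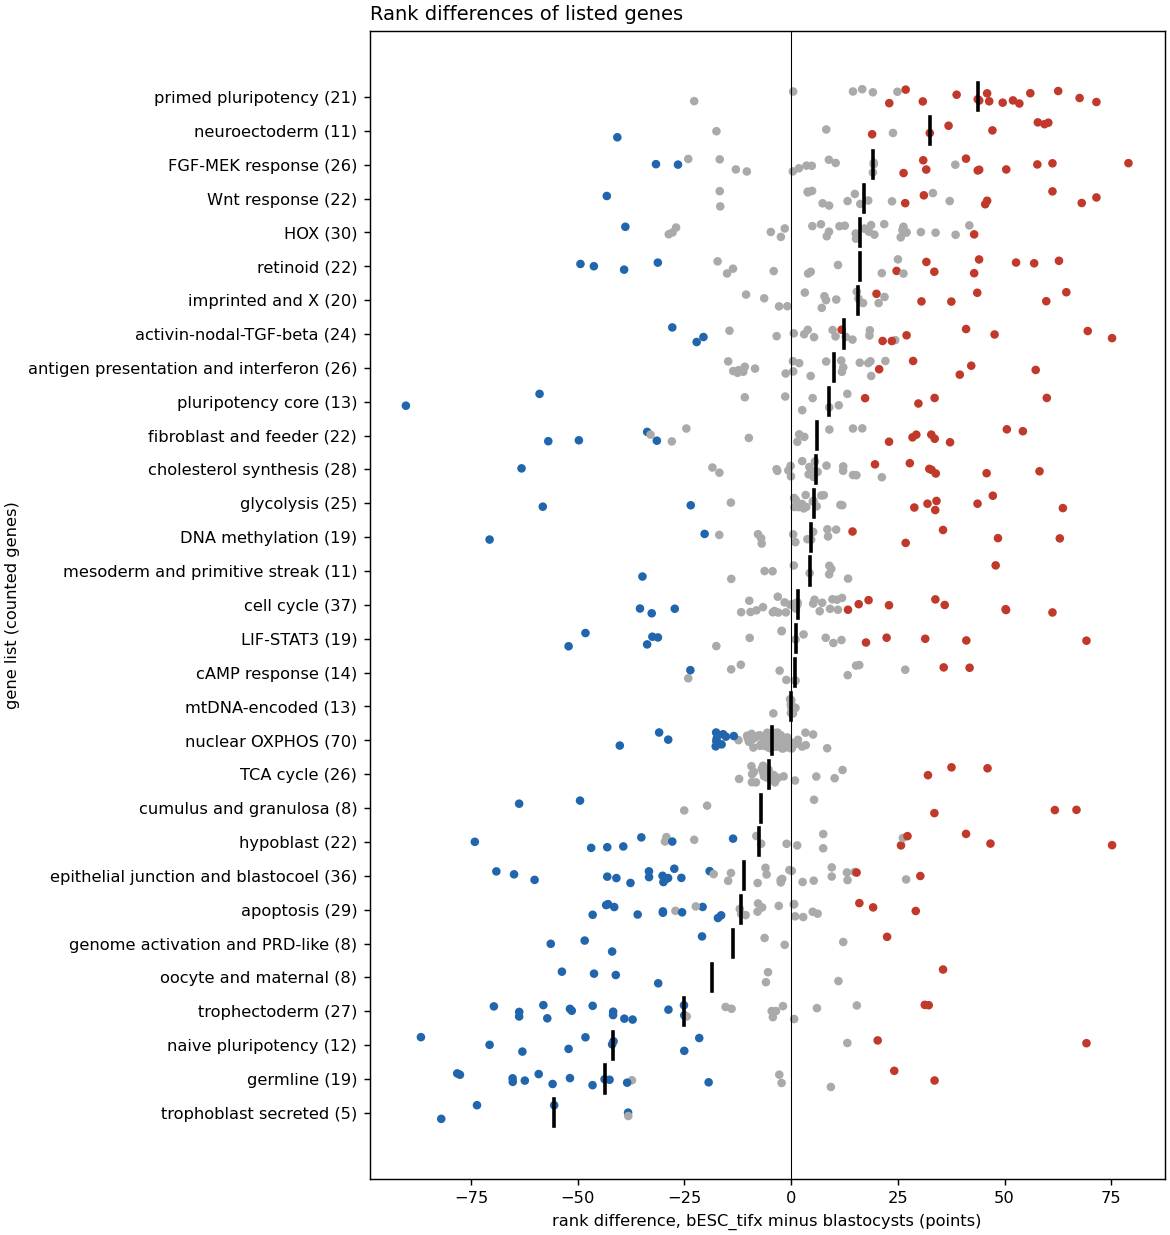
Difference in mean percentile rank, bESC_tifx minus blastocysts, for each counted gene of the 31 lists (points). Red points are called higher, blue points lower and grey points not called, bars are list medians, and the number of counted genes stands in brackets. The primed list lies highest with a median of 43.73 points and the trophoblast secreted list lowest with -55.54 points. In the latter, PAG2, IFNT3 and TKDP1 passed the minimum level through the blastocysts alone, so they could only come out lower.

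Fibroblast genes, which could come from feeder cells, did not move one way. Of 22 counted genes 8 were higher (36.4%) and 4 lower (18.2%), against 20.8% and 18.5% of all counted genes. VIM, the intermediate filament vimentin, had 236 and 258 FPKM in bESC_tifx, 15.5 FPKM in DMSO 3 and at most 0.606 FPKM in the other blastocysts. COL1A1 had 54.7 and 46.7 FPKM against at most 1.76 FPKM, but COL1A2, the second chain of the same collagen, had 3.61 and 3.03 FPKM against between 4.94 and 12.9 FPKM, a call that was lost on the log2 scale. The feeder cells are of mouse and the reads were counted on bovine genes, and the part of mouse RNA in these values was not tested.

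The 2 bESC_tifx libraries differed in the HOX family and in other genes. By 30 points or more, 80 counted genes (0.661%) differed between them, 52 higher in bESC_tifx 3 and 28 higher in bESC_tifx 2. Of 39 HOX genes, the homeobox factors that pattern the body axis, 26 were among those higher in bESC_tifx 3, and 0 were higher in bESC_tifx 2. The other 54 of the 80 genes lay outside the HOX family. At 1 FPKM or more, 0 HOX genes were found in bESC_tifx 2, 30 in bESC_tifx 3 and between 3 and 8 in the blastocysts. HOXC6 had 0.820 FPKM in bESC_tifx 2 and 40.4 FPKM in bESC_tifx 3, and HOXB2 had 0.246 and 36.4 FPKM. CDX2, a regulator of HOX genes in the posterior embryo, differed in the same direction, as did SP5 (2.60 and 50.6 FPKM), WNT8A (4.86 and 42.0 FPKM) and LEF1 (2.93 and 16.7 FPKM), all genes of Wnt signaling. OTX2, an anterior factor, was opposite, with 33.4 FPKM in bESC_tifx 2 and 3.40 FPKM in bESC_tifx 3. SP5, WNT8A, HOXB2 and HOXC6 were picked out with their values already known. The same split appeared in the bESCs treated with LY2955303: 1 HOX gene reached 1 FPKM in bESC_LY 2 and 31 did so in bESC_LY 3, and of the 52 genes higher in bESC_tifx 3, 45 were also higher by 30 points or more in bESC_LY 3 than in bESC_LY 2. Of the 28 genes higher in bESC_tifx 2, 20 were so in bESC_LY 2 over bESC_LY 3. The median HOX difference from blastocysts was 16.16 points over the 30 genes counted with both libraries. Over the same 30 genes the median rank was 21.73 in bESC_tifx 2, 65.33 in bESC_tifx 3 and between 23.58 and 29.35 in the blastocysts. What the replicate numbers stand for is not given in the labels.

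**Figure D5:**
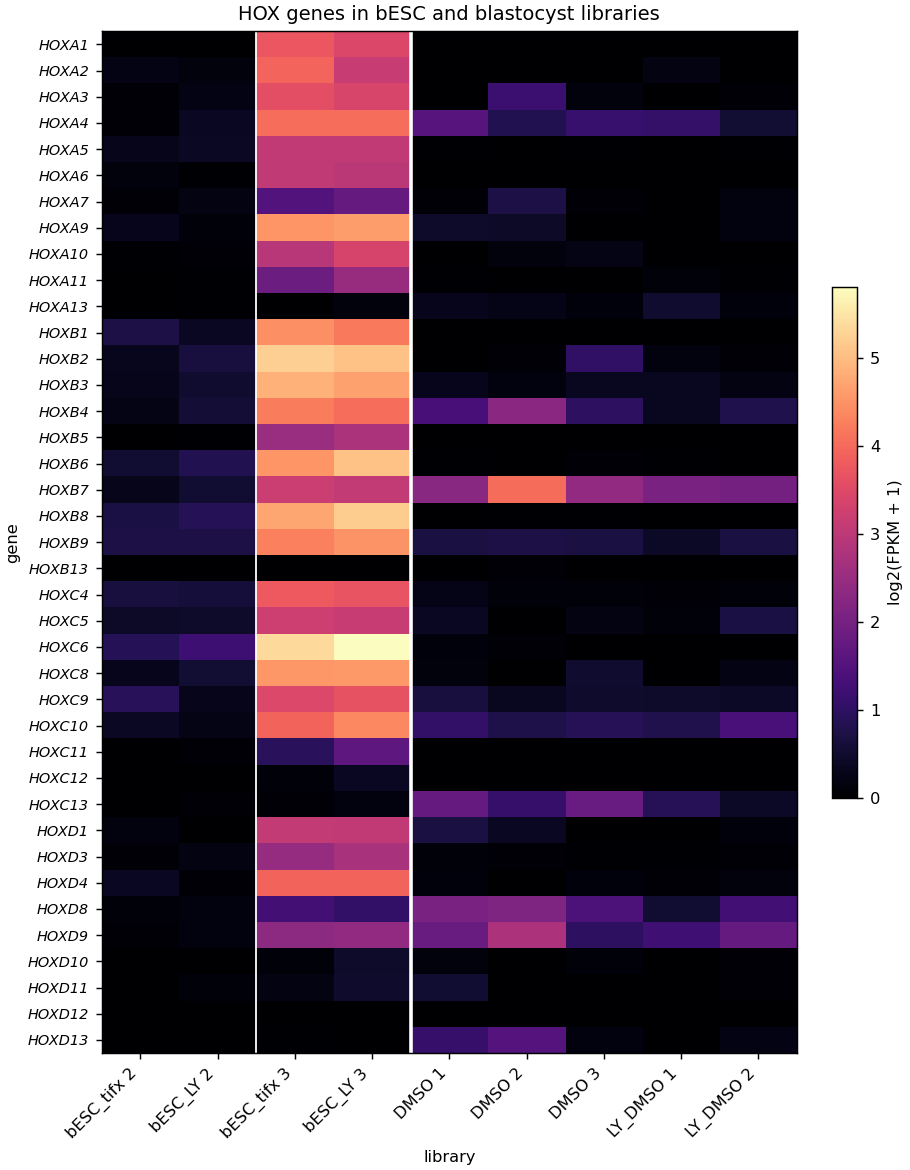
log2(FPKM + 1) of 39 HOX genes in the 4 bESC libraries, with replicates 2 and 3 side by side, and in the 5 control blastocysts. At 1 FPKM or more there are 0 genes in bESC_tifx 2, 30 in bESC_tifx 3, 1 in bESC_LY 2 and 31 in bESC_LY 3.

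The genes with the widest gaps included several that share their span with another gene model. Of 20 genes listed at 0 in all 12 blastocysts of the series and at 10 FPKM or more in bESC_tifx, 15 (75%) had over 50% of their span inside other gene models of the blastocyst tables, against 4.08% of all counted genes. RPS23 and RPL37, ribosomal proteins that every cell makes, were among them, with 991 and 1023 FPKM and with 1141 and 901 FPKM in bESC_tifx. LGALS1, PTOV1, CHP1, CHTF8, MSMP and SLC35A4 had the same overlap, and whether reads of these 8 genes were left uncounted for it was not tested. In the other direction MRPL24 lies wholly inside another gene model in the bESC table. Among the widest gaps without such overlap, RGMA, a guidance molecule, had 42.7 and 124 FPKM in bESC_tifx, DPYSL4 had 37.0 and 69.6 FPKM, and CACNG7, a channel subunit, had 46.2 and 39.6 FPKM. All 3 were listed at 0 in the 5 control blastocysts. Lower without overlap were CD48, a surface glycoprotein, SPIC, an ETS factor, MMP12, a protease, and IL1RN, an interleukin 1 antagonist, all listed at 0 in both bESC_tifx libraries, with at least 132, 48.8, 16.7 and 17.7 FPKM in the blastocysts. PTGS2, the cyclooxygenase of prostaglandin synthesis, had 0.164 and 0.216 FPKM in bESC_tifx and between 302 and 599 FPKM in the blastocysts. Among the most abundant genes, ANXA1 and LGALS3 had at least 1164 and 2258 FPKM in a blastocyst against at most 0.912 and 5.22 FPKM in bESC_tifx. IGFBP2, which binds insulin-like growth factors, STMN2, a neuronal tubulin-binding protein, and FSCN1, an actin-bundling protein, had at least 603, 205 and 235 FPKM in bESC_tifx against at most 4.003, 1.44 and 0.826 FPKM.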

How the data were processed

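The authors trimmed the reads with fastp, aligned them (their methods name both STAR and HISAT2), counted them on genes with featureCounts and deposited FPKM in 3 tables. The submitters' processing notes list HISAT2 2.0.5, StringTie 1.3.3b, featureCounts 1.5.0-p3 and DESeq2 1.20.0. The genome build is not given in the sources used here. Gene starts and ends in the blastocyst tables equal those of RefSeq's ARS-UCD2.0 for 97.7% of the shared genes, and coordinates are given from there. Some genes of the lists are counted but not reported by name here. The tables also hold the authors' fold changes and p-values, which were not used. FPKM times gene length gave whole reads for 100% of values, within 0.02 reads, from which depth and the limit of 3 reads for a count of 0 were taken. Limits cover counting error only.

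Ranks were computed over shared gene names with Python 3.11.15, numpy 2.4.6, pandas 2.3.3 and scipy 1.17.1, and plots with matplotlib 3.10.9. The call rule was tested on simulated data. Genes that start near the top of the scale and go up were often missed there, since they have little room, and the genes so limited are counted in the results. The pooled SD is taken over the 7 libraries around their 2 group means. Named genes were a fixed list of 55, of which 49 matched by name, up to 3 genes per list and direction with the largest difference, the 12 per direction with the widest gap (protein-coding, 10 FPKM or more, lengths within 1.5 times), and among genes in the top 5% the 8 per direction with the largest log2 ratio. The members and lists were chosen with earlier results of these data known. The complexes, the overlap of gene models and the bESC replicate split were added after seeing the data. Alternatives were other gene sets, a common gene length, a log2 scale with a pseudocount of 1, other level and gap minimums, either blastocyst group alone, bESC_LY in place of bESC_tifx, and each library left out.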

Additional observations from a re-analysis of the deposited data

Results flagged for a closer look

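Among the 5 control blastocysts, the most distant one was set against Dixon's critical value for the ranks of 31 lists and 181 named genes. Of these 212, 12 had 1 blastocyst far from the others, where chance gives about 1 in 20, so the number flagged is near that share. DMSO 3 stood apart in 4 of them: the median of the FGF-MEK list (rank 54.54), VIM (80.16), STRA6 (47.53) and GADD45A (82.35). DMSO 1 was apart in RARA (22.62) and RXRA (22.95), and DMSO 2 in NDUFA13 (97.97). LY_DMSO 1 was apart in BCL2 (20.69) and RARG (26.14), where the other blastocysts had 0 reads. LY_DMSO 2 was apart in CEBPB (25.63), DUSP4 (27.53) and PMAIP1 (88.48). In CEBPB, DUSP4 and STRA6 too the other blastocysts had 0 reads. Ranks of genes with 0 reads lie close together, so a few reads are enough for such a flag. The flagged library had 1 read in CEBPB, 2 in BCL2 and 3 in DUSP4. Leaving that blastocyst out could not remove the call of any of these 11 genes, since a smaller group can only keep or widen the gap. How much that blastocyst weighs was therefore not tested by leaving it out.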

How the results depend on the processing

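No paired analysis was possible because no test was run across the tables and blastocysts and bESC libraries are unrelated samples. The counts of 2513 higher and 2242 lower genes became 4562 and 4273 with any gap, 1362 and 1170 with a gap of at least 20 points, and 1099 and 1055 when only the 5612 genes with lengths within 1.2 times were counted. On the log2 scale they were 5656 and 927. Leaving out each library gave between 2600 and 2923 higher and between 2317 and 2656 lower genes. A smaller group can only keep or widen a gap, so these counts do not test the calls. With gene models that overlap others over at most 10% of their length, an alternative chosen after seeing the data, they were 2078 and 1874, and all other alternatives stayed within 1.5 times the counts above. Of the 166 named genes that were called, LIN28B turned to -0.19 points with a common gene length. ACVR2A (-22.15 points) and ZFP57 (-20.28 points) turned to 0.12 and 0.30 on the log2 scale, where all counted genes were shifted by 1.57. Since a smaller group can only keep or widen a gap, none of the 166 could lose its call when 1 library was left out. With bESC_LY in place of bESC_tifx 161 of the 166 kept their call. On the log2 scale 25 lost their call, among them RARB, IL6R, COL1A2 and GSC. All of these 25 were lower calls, on a scale shifted by 1.57 towards bESC_tifx. With a common gene length 10 lost their call, among them SOCS3, and with a gap of at least 20 points 19 did, among them DNMT3B and VIM. Of the 31 lists, 11 had a median that changed sign under at least 1 alternative. The HOX median of -39.82 points without bESC_tifx 3 rests on the 6 genes that then passed the minimum level, all through the blastocysts. Genes listed at 0 rest on depth, which was lower in the blastocysts.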

Other observations

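Neural genes stood higher in bESC_tifx. Of 11 counted neuroectoderm genes 7 were called higher (63.6%) and 1 lower (9.09%), against 20.8% and 18.5% of all counted genes. The median difference was 32.49 points. MSI1, an RNA-binding protein of neural progenitors, had 53.03 and 79.1 FPKM in bESC_tifx and at most 0.282 FPKM in a blastocyst. NES, the intermediate filament nestin, had 85.0 and 92.2 FPKM against at most 0.625 FPKM. Of 11 counted mesoderm and primitive streak genes 1 was higher and 1 lower (9.09% each), both below the shares of all counted genes. CDX4 was higher, with 22.8 and 89.4 FPKM against at most 1.22 FPKM. GSC was lower and lost its call on the log2 scale.

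Of 20 counted imprinted and X-linked genes 6 were higher (30%) and 0 lower, against 20.8% and 18.5% of all counted genes. PEG10, a paternally expressed gene, had 79.3 and 110 FPKM in bESC_tifx and at most 0.875 FPKM in a blastocyst, and MAGEL2, another, had 25.7 and 23.5 FPKM against at most 0.106 FPKM. Of 26 counted genes of antigen presentation and interferon response 5 were higher (19.2%) and 0 lower, where 20.8% of all counted genes were higher. PSMB8, an immunoproteasome subunit, had 23.5 and 27.1 FPKM against 1.01 FPKM in DMSO 1 and at most 0.283 FPKM in the others. In the activin and nodal list 8 of 24 counted genes were higher (33.3%) and 3 lower (12.5%), against 20.8% and 18.5% of all counted genes. Among the higher ones ID3, a target of BMP signaling, had 79.8 and 51.7 FPKM against at most 3.61 FPKM. Of 26 counted TCA cycle genes 3 were higher (11.5%) and 0 were lower. The median difference was -5.13 points, 19 of the 26 had a lower mean rank in bESC_tifx, and 8 ranked low enough in the blastocysts to be called higher. DLST and IDH2, enzymes of the cycle, were among the higher ones, with differences of 46.02 and 37.58 points.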
